A study of Neurospora crassa OR74A with 15 samples.

Results

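Glycolysis and ethanol fermentation were followed in the filamentous fungus Neurospora crassa through 10 genes, of 9733 gene loci measured. The genes were chosen by function: hexose kinases, listed enzymes from phosphofructokinase to pyruvate kinase, pyruvate decarboxylase and alcohol dehydrogenase. The stretch from phosphofructokinase to pyruvate kinase is not complete, as triosephosphate isomerase, for example, is not among the genes. Wild-type mycelia of strain FGSC 2489 were raised from 10-day-old conidia for 16 h in 2% sucrose, washed without carbon and held for 4 h in a new medium. The new medium contained 1% pectin (3 libraries), 1% orange peel powder (2 libraries), 2% xylan (1 library), 2% Avicel, which is microcrystalline cellulose (3 libraries), 2% sucrose (3 libraries) or no carbon source (3 libraries). All 15 libraries share the strain and the sucrose pregrowth. The labels place pectin, orange peel powder and xylan in the depositing study and Avicel, sucrose and no carbon in a previous one. Between these 2 sets, an effect of the medium and one of the study cannot be told apart.

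Glycolysis splits hexoses into pyruvate and yields ATP. A hexose kinase traps the sugar as its phosphate, phosphofructokinase commits it to the pathway, aldolase cleaves it, and the lower enzymes recover energy on the way to pyruvate. Pyruvate then enters the mitochondrion through the pyruvate dehydrogenase complex or is turned by pyruvate decarboxylase into acetaldehyde, which alcohol dehydrogenase reduces to ethanol.

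Transcript levels are given in FPKM, fragment counts divided by transcript length and a library-wide scaling, and can therefore be compared between genes per length. The summed FPKM of 3555456 to 7102823 per library is higher than scaling to all mapped fragments would give. The basis of the scaling was not established. If FPKM were scaled to all mapped fragments, coverage in the 9 earlier libraries would imply 60.4 and 61.9 megabases in Avicel replicate 1 and sucrose replicate 1. The other 7 would have 209 to 1052 megabases. These megabases follow each library's scaling and are not a measured yield. The depth of the pectin, orange peel powder and xylan libraries is unknown. Avicel replicate 1 and sucrose replicate 1, called the 2 shallow libraries below, stood apart from their replicates for several of the genes, and the counts against sucrose are given with and without them. The cellulase gene cbh-1 read 86756 to 186620 FPKM on Avicel and at most 246 elsewhere, and NCU09533 read 12934 FPKM or more on pectin, orange peel powder and xylan and at most 423 elsewhere. Transcripts known from conidia and aerial hyphae (eas, con-6, con-8 and con-10) summed to 62.5 to 414 FPKM on sucrose, 80926 to 212217 without carbon, 19660 to 40487 on Avicel, 3126 to 9403 on pectin, 1616 to 2049 on orange peel powder and 1519 on xylan. Most of the sum without carbon and on Avicel was eas, and the 4 markers did not rank the replicates alike. In no-carbon replicate 1, eas was the highest of its group at 206272 FPKM, while con-6, con-8 and con-10 were each the lowest. Avicel replicate 1 had the highest eas, con-6 and con-8 of its group but the lowest con-10, 158 FPKM against 699 and 680. On sucrose, con-6 and con-8 were listed at 0 in replicate 1 and con-10 in replicates 1 and 3. The marker levels moved with the contrast between sucrose and the other media in the same direction as adh-1 and opposite to the glycolytic genes, and their part in the results was not tested. In such bulk samples, fewer cells of a type and less RNA per cell cannot be told apart.

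On the deposited scale, the group means of the 6 genes from phosphofructokinase to pyruvate kinase were lower in each of the other media than on sucrose, while that of adh-1 was higher. All 10 genes passed the filter on low values, a mean of at least 1 FPKM. A gene was called when limma on log2(FPKM + 1) gave a Benjamini-Hochberg adjusted p below 0.05 over the 8700 genes tested and the log2 fold change reached 1 in size. Without carbon, 8 of the 10 genes were called lower than on sucrose and 0 higher, beside 18.0% of all genes called lower, 34.2% higher and 52.3% in either direction. On Avicel 6 were lower and 0 higher, beside 18.4% of all genes called lower, 30.3% higher and 48.6% in either direction. On pectin 4 were lower and 1 higher, beside 14.2% of all genes lower, 26.6% higher and 40.8% either way. On orange peel powder 5 were lower and 0 higher, beside 14.8% of all genes lower, 25.4% higher and 40.2% either way. The members' median log2 fold change against sucrose was -1.95 without carbon, -1.55 on Avicel, -1.27 on pectin and -1.41 on orange peel powder, where the median of all genes was 0.38, 0.24, 0.18 and 0.21. These 4 comparisons share the sucrose libraries. Without the 2 shallow libraries the numbers lower were 8, 7, 4 and 6, beside 19.6%, 19.6%, 16.8% and 18.0% of all genes lower. adh-1 was then the 1 member called higher in each of the 4, beside 34.6%, 32.2%, 27.4% and 27.6% of all genes higher.

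The scale of the values bears on these counts. The summed FPKM of a library was 7102823 and 7081784 in sucrose replicates 2 and 3 and 5272945 in sucrose replicate 1, against 3555456 to 5172025 in the other groups. When all libraries were forced to 1 distribution by quantile normalization, the median of all genes moved to -0.05, -0.07, -0.18 and -0.17 in the same order, and the share of calls that were higher moved from 65.5% to 50.2%, from 62.2% to 48.3%, from 65.2% to 45.3% and from 63.3% to 44.4%. Under that scaling emp-3 and ace-8 remained called lower in all 4 comparisons, pgk on pectin and orange peel powder, and NCU00575 without carbon, while adh-1 was called higher in all 4. Upper-quartile scaling moved the medians the other way, to 0.62, 0.46, 0.37 and 0.42. With it emp-3, pgk, emp-7 and ace-8 remained called lower in all 4 comparisons. It ended the fba call without carbon and the gpd-1 call on Avicel, and adh-1 was called higher on Avicel, pectin and orange peel powder.

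**Figure D1:**
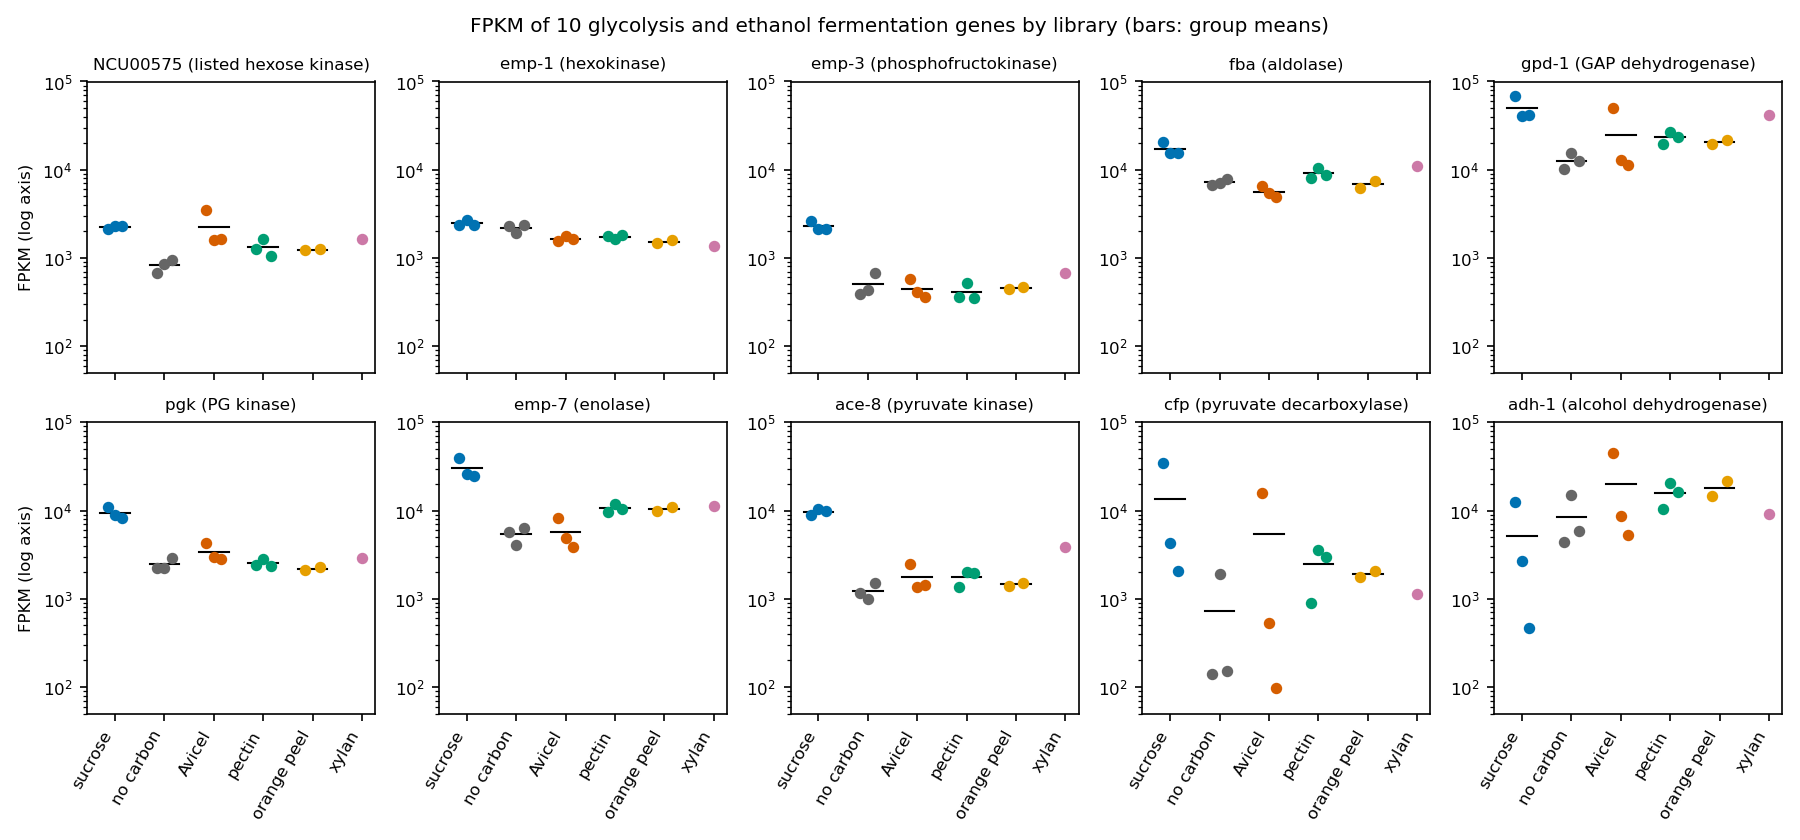
FPKM (log axis) of the 10 genes in each of the 15 libraries, grouped by medium, with a bar at the mean of each replicated group. The sucrose points lie above all others for emp-3, pgk, emp-7 and ace-8, whereas cfp and adh-1 spread over more than a 10-fold range within sucrose.

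The 10 genes took up between 0.808% (Avicel replicate 3) and 3.85% (sucrose replicate 1) of the summed FPKM of a library. The share was 2.34% ± 1.31 (SD, n = 3) on sucrose, 1.51% ± 1.03 (SD, n = 3) on Avicel, 1.15% ± 0.204 (SD, n = 3) without carbon, 1.59% ± 0.299 (SD, n = 3) on pectin, 1.65% ± 0.183 (SD, n = 2) on orange peel powder and 2.19% in the xylan library. The 2 shallow libraries held the highest shares of their groups, 3.85% on sucrose against 1.63% and 1.54% in its replicates, and 2.69% on Avicel against 1.03% and 0.808%. Pectin, orange peel powder and the other 2 sucrose libraries overlapped in share. Within the total, the 6 genes from phosphofructokinase to pyruvate kinase held 1.43% to 2.88% on sucrose, 1.85% on xylan and 0.597% to 1.41% elsewhere. The fermentative pair of pyruvate decarboxylase and alcohol dehydrogenase varied most, from 0.036% in sucrose replicate 3 to 1.19% in Avicel replicate 1.

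**Figure D2:**
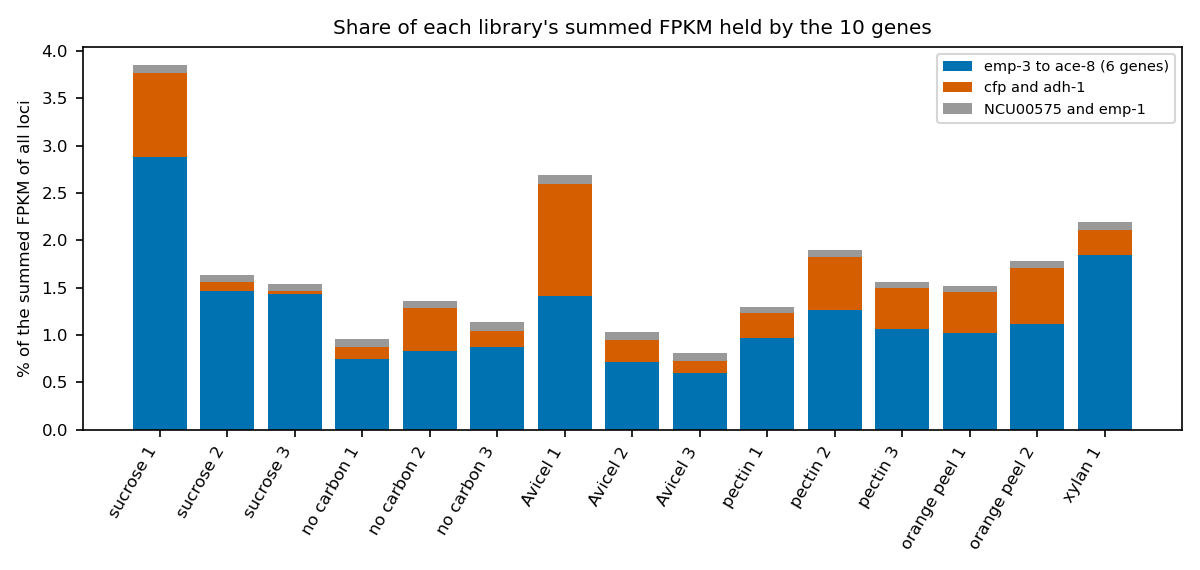
Share of each library's summed FPKM held by the 6 genes emp-3 to ace-8, by cfp and adh-1, and by NCU00575 and emp-1, as stacked bars. Sucrose replicate 1 and Avicel replicate 1 are the tallest bars of their groups at 3.85% and 2.69%.

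The first step is represented by NCU00575, listed among the hexose kinases and without a symbol of its own, and by emp-1, a hexokinase gene. NCU00575 (supercontig 10.1, 7953806 to 7956676) read 2152, 2274 and 2327 FPKM on sucrose, 674, 851 and 934 without carbon and 3513, 1579 and 1655 on Avicel. It read 1249, 1658 and 1059 FPKM on pectin and 1223 and 1259 on orange peel powder. The no-carbon libraries were the lowest of all 15, and the Avicel libraries spanned the sucrose range because replicate 1 stood above it. NCU00575 fell without carbon relative to sucrose, with a log2 fold change of -1.47 ± 0.28 (SE) (limma, adjusted p = 0.000486, n = 3 against 3). It was called higher on Avicel than without carbon, with a log2 fold change of 1.37 ± 0.28 (SE) (limma, adjusted p = 0.00803). That call was lost without the 2 shallow libraries, where the value was 0.99 (limma, adjusted p = 0.00619), just under the required fold. On pectin and orange peel powder its values against sucrose were -0.79 and -0.86 and were not called.

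The emp-1 gene (NCU02542, supercontig 10.1, 2674892 to 2678353) was the least variable of the set. It read 2389, 2682 and 2360 FPKM on sucrose, 2270, 1904 and 2352 without carbon, 1537, 1766 and 1656 on Avicel, 1751, 1638 and 1798 on pectin and 1464 and 1590 on orange peel powder. The sucrose libraries lay above all others, and the no-carbon libraries lay above the remaining media. Its residual SD of 0.11 log2 units was smaller than that of all but 2.2% of the genes tested. No comparison passed the 2-fold requirement. The values against sucrose were -0.19 ± 0.13 (SE) without carbon, -0.58 ± 0.13 (SE) on Avicel, -0.52 ± 0.13 (SE) on pectin and -0.70 ± 0.15 (SE) on orange peel powder, with limma adjusted p of 0.223, 0.00225, 0.00599 and 0.00217. The no-carbon value turned to 0.42 under quantile normalization.

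The 6 genes from phosphofructokinase to pyruvate kinase were all called lower than on sucrose without carbon and on Avicel, 5 of 6 on orange peel powder and 4 of 6 on pectin. Without the 2 shallow libraries all 6 were also lower on orange peel powder, and the other counts were the same. Their median log2 fold change was -2.09 without carbon, -1.99 on Avicel, -1.67 on pectin and -1.79 on orange peel powder. The first and the last gene of the stretch, emp-3 and ace-8, had the firmest calls: neither lost one in any of the 17 or 18 alternative settings of these 4 comparisons.

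The emp-3 gene (NCU00629, supercontig 10.1, 7764905 to 7768116) encodes phosphofructokinase, the committing step. It read 2592, 2139 and 2106 FPKM on sucrose, 387, 433 and 681 without carbon, 575, 410 and 356 on Avicel, 358, 515 and 354 on pectin and 442 and 471 on orange peel powder. The sucrose libraries did not overlap any other, and the 4 remaining groups overlapped each other throughout. The log2 fold change against sucrose was -2.22 ± 0.24 (SE) without carbon, -2.37 ± 0.24 (SE) on Avicel, -2.49 ± 0.24 (SE) on pectin and -2.31 ± 0.27 (SE) on orange peel powder, with limma adjusted p of 5.24e-06, 3.29e-06, 3.44e-06 and 2.12e-05. The mean on sucrose was 4.55 to 5.57 times that of these groups.

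The ace-8 gene (NCU06075, supercontig 10.7, 2358335 to 2361288) encodes pyruvate kinase, which makes pyruvate and ATP at the end of the pathway. It read 8873, 10532 and 9860 FPKM on sucrose, 1169, 1005 and 1517 without carbon, 2452, 1367 and 1431 on Avicel, 1348, 2033 and 1951 on pectin and 1383 and 1528 on orange peel powder. Again the sucrose libraries stood apart and the other replicated groups overlapped. Its log2 fold change was -3.0 ± 0.25 (SE) without carbon, -2.53 ± 0.25 (SE) on Avicel, -2.48 ± 0.25 (SE) on pectin and -2.74 ± 0.28 (SE) on orange peel powder, with limma adjusted p of 5.57e-07, 2.57e-06, 4.88e-06 and 7.16e-06. The mean level on sucrose was 7.93 times that without carbon.

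Aldolase, encoded by fba (NCU07807, supercontig 10.5, 220500 to 222516), cleaves the 6-carbon sugar phosphate. It read 20746, 15440 and 15579 FPKM on sucrose, 6740, 7114 and 7836 without carbon, 6572, 5405 and 4923 on Avicel, 8114, 10422 and 8712 on pectin and 6247 and 7436 on orange peel powder. All sucrose libraries were above all others, and the Avicel libraries were below the no-carbon and pectin ranges. The log2 fold change against sucrose was -1.24 ± 0.21 (SE) without carbon, -1.61 ± 0.21 (SE) on Avicel and -1.33 ± 0.24 (SE) on orange peel powder (limma, adjusted p = 0.000243, 3.19e-05 and 0.000629), while the pectin value of -0.92 missed the fold requirement. Under quantile normalization no fba value was called, and those without carbon and on pectin turned to 0.65 and 0.15.

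Glyceraldehyde-3-phosphate dehydrogenase is encoded by gpd-1, also known as the clock-controlled gene ccg-7 (NCU01528, supercontig 10.2, 3180356 to 3182245). It had the highest mean level of the 10 genes in each of the 6 media and read 68658, 40638 and 41292 FPKM on sucrose, 10172, 15511 and 12450 without carbon and 50685, 13037 and 11220 on Avicel. Avicel replicate 1 lay inside the sucrose range, and its replicates lay near the no-carbon libraries. On pectin it read 19602, 27005 and 23447 FPKM and on orange peel powder 19325 and 21643, between the no-carbon and sucrose ranges without overlap. gpd-1 was called lower without carbon, with a log2 fold change of -1.96 ± 0.50 (SE) (limma, adjusted p = 0.00411), and on Avicel, with -1.32 ± 0.50 (SE) (limma, adjusted p = 0.0356). Quantile normalization ended both calls, at -0.32 without carbon and -0.44 on Avicel (limma, adjusted p = 0.638 and 0.522). The Avicel call was lost in 8 of 18 alternatives, and without the 2 shallow libraries it was -1.76 ± 0.24 (SE) (limma, adjusted p = 7.93e-05). The pectin and orange peel powder values of -1.07 and -1.25 were not called and turned to 0.21 and 0.30 under quantile normalization. Without the 2 shallow libraries gpd-1 was called lower on orange peel powder, at -1.0 ± 0.24 (SE) (limma, adjusted p = 0.00419).

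Phosphoglycerate kinase, the first ATP-forming enzyme of the pathway, is encoded by pgk (NCU07914, supercontig 10.4, 1370603 to 1372480). It read 10999, 9020 and 8142 FPKM on sucrose, 2246, 2207 and 2924 without carbon, 4333, 2969 and 2841 on Avicel, 2446, 2833 and 2337 on pectin and 2114 and 2281 on orange peel powder. The sucrose libraries again stood clear of the rest. The log2 fold change was -1.93 ± 0.21 (SE) without carbon, -1.49 ± 0.21 (SE) on Avicel, -1.88 ± 0.21 (SE) on pectin and -2.08 ± 0.23 (SE) on orange peel powder, with limma adjusted p of 4.64e-06, 4.34e-05, 1.01e-05 and 1.43e-05. Quantile normalization reduced the no-carbon and Avicel values to -0.79 and -0.56, which no longer met the fold requirement.

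Enolase, encoded by emp-7 (NCU10042, supercontig 10.1, 5945430 to 5947804), forms phosphoenolpyruvate. It read 39793, 26032 and 24520 FPKM on sucrose, 5760, 4053 and 6271 without carbon, 8298, 4950 and 3836 on Avicel, 9625, 11944 and 10402 on pectin and 9969 and 10910 on orange peel powder. The groups formed 3 tiers without overlap: sucrose on top, pectin and orange peel powder in the middle, Avicel and no carbon below. The log2 fold change against sucrose was -2.48 ± 0.31 (SE) without carbon, -2.44 ± 0.31 (SE) on Avicel, -1.47 ± 0.31 (SE) on pectin and -1.49 ± 0.35 (SE) on orange peel powder (limma, adjusted p = 1.95e-05, 2.35e-05, 0.00168 and 0.00355). None of these 4 calls remained under quantile normalization, where the values were -0.48, -1.03, -0.22 and 0.00. All 4 remained under upper-quartile scaling, at -2.23, -2.21, -1.28 and -1.28.

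**Figure D3:**
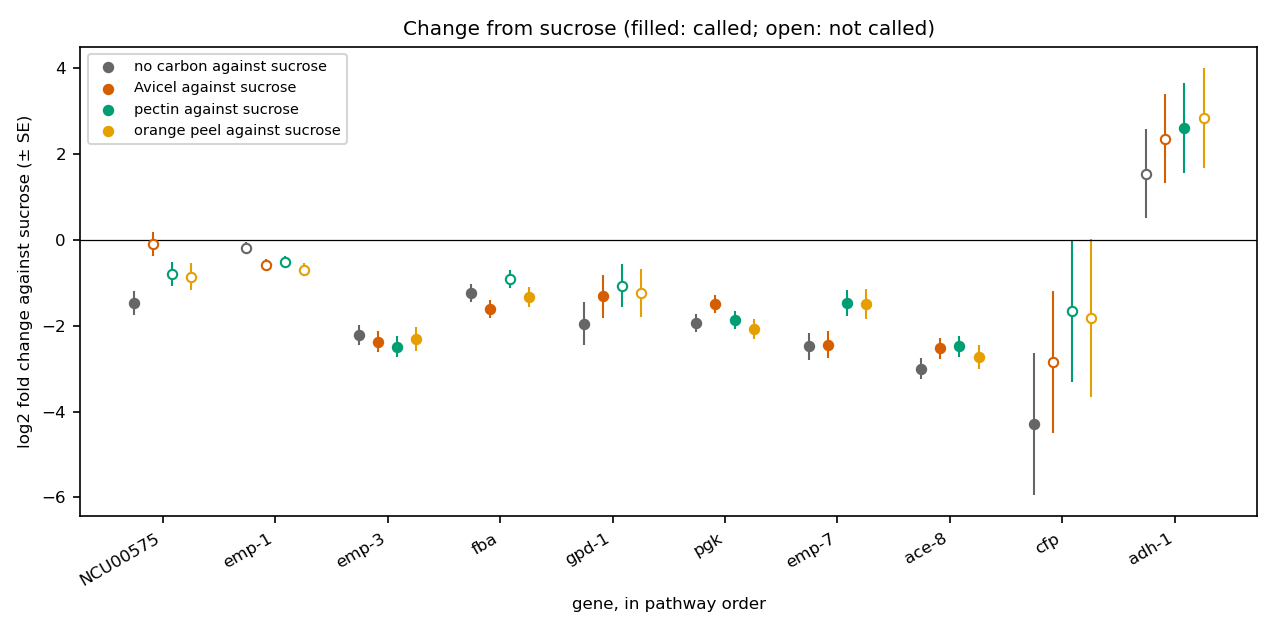
Log2 fold change of each gene against sucrose, on the log2(FPKM + 1) scale with SE bars, for 4 media, with filled points called and open points not called. The points of emp-3, pgk, emp-7 and ace-8 are filled for all 4 media, adh-1 lies above 0 and cfp carries SE bars of 1.65 to 1.84.

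The genes of ethanol fermentation varied more between replicates than nearly all others. The residual SD was 2.32 log2 units for cfp and 1.45 for adh-1, larger than in 99.9% and 99.0% of the genes tested, where the median was 0.32. Pyruvate decarboxylase is encoded by cfp (NCU02193, supercontig 10.7, 867824 to 870041), named for the protein filaments that it forms. It read 34410, 4347 and 2083 FPKM on sucrose, 141, 1914 and 151 without carbon and 15862, 532 and 97.1 on Avicel. On pectin it read 888, 3610 and 2982 FPKM and on orange peel powder 1769 and 2088. The highest library exceeded the lowest 16.5-fold on sucrose, 13.5-fold without carbon, 163-fold on Avicel and 4.06-fold on pectin. cfp was called lower without carbon, with a log2 fold change of -4.29 ± 1.65 (SE) (limma, adjusted p = 0.0345), the groups not overlapping. That call was lost in 6 of 18 alternatives, which included leaving out no-carbon replicate 1 or 3 or sucrose replicate 1 or 2, with adjusted p up to 0.136. Its other values against sucrose, -2.85 on Avicel, -1.67 on pectin and -1.82 on orange peel powder, were not called. Without the 2 shallow libraries cfp was called lower on Avicel, at -3.72 ± 1.23 (SE) (limma, adjusted p = 0.0192).

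Alcohol dehydrogenase is encoded by adh-1 (NCU01754, supercontig 10.2, 2540264 to 2541938). It read 12382, 2702 and 465 FPKM on sucrose, 4431, 14843 and 5871 without carbon and 45486, 8582 and 5255 on Avicel. On pectin it read 10410, 20421 and 16375 FPKM and on orange peel powder 14762 and 21388. The orange peel powder libraries lay above all sucrose libraries, and the other groups overlapped sucrose through its replicate 1. Against sucrose the log2 fold change was 2.60 ± 1.04 (SE) on pectin, which was called (limma, adjusted p = 0.0485), and 1.54 ± 1.04 (SE) without carbon, 2.35 ± 1.04 (SE) on Avicel and 2.83 ± 1.16 (SE) on orange peel powder, which were not (limma, adjusted p = 0.202, 0.0646 and 0.0568). The pectin call was lost in 9 of 18 alternatives. Without the 2 shallow libraries adh-1 was called higher in all 4, by 2.70 without carbon, 2.58 on Avicel, 3.76 on pectin and 3.98 on orange peel powder (limma, adjusted p = 0.00495, 0.0113, 0.00075 and 0.00099).

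Within each of the 5 replicated groups the same library was highest for both fermentative genes: Avicel replicate 1, sucrose replicate 1, and replicate 2 without carbon, on pectin and on orange peel powder. Avicel replicate 1 and sucrose replicate 1 are the shallow libraries, and no-carbon replicate 2 had an implied 1014 megabases. For pectin and orange peel powder the depth is unknown. The part of depth in these shared peaks was not tested. The balance of the pair separated sucrose from the rest. The adh-1 level was 0.36, 0.622 and 0.223 times the cfp level in the sucrose libraries, and 2.87 to 54.1 times that level in the other 12. The mean log2 ratio was higher than on sucrose by 5.84 without carbon, 5.2 on Avicel, 4.28 on pectin and 4.65 on orange peel powder. An exact two-sided permutation test gave p = 0.1 for each of the first 3, the smallest value that 3 against 3 libraries allow, and p = 0.2 for orange peel powder, the smallest for 2 against 3. This ratio was chosen after the values were seen, and groups that separate fully always give the smallest p. The test therefore adds nothing to the ranges above.

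**Figure D4:**
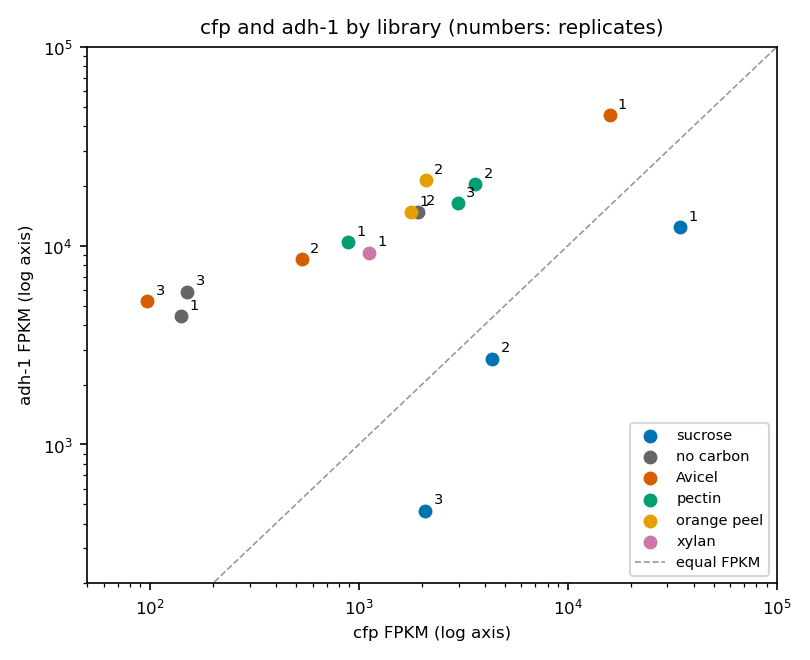
adh-1 against cfp in each library, both in FPKM on log axes, with replicate numbers beside the points and a dashed line at equal FPKM. The 3 sucrose libraries lie below the line and the other 12 above it, and Avicel replicate 1 lies farthest to the upper right.

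Against the cultures without carbon, few of the genes were called. On Avicel only NCU00575 was higher, 1 of 10 beside 4.03% of all genes called higher, 2.33% lower and 6.37% in either direction. On pectin only emp-7 was higher, beside 10.4% of all genes higher, 10.9% lower and 21.2% either way, with a log2 fold change of 1.01 ± 0.31 (SE) (limma, adjusted p = 0.0253). The emp-7 value on orange peel powder was 0.98 ± 0.35 (SE), under the required fold (limma, adjusted p = 0.0491). The emp-7 call on pectin was lost in 6 of 18 alternatives, among them both rescalings and leaving out pectin replicate 2 or 3 or no-carbon replicate 2. Without the 2 shallow libraries emp-7 stayed called on pectin. There cfp was also called higher, at 2.62 ± 1.00 (SE) (limma, adjusted p = 0.0471), in groups that overlapped. Of all genes, 11.8% were then called higher on pectin than without carbon and 14.1% lower. On orange peel powder limma called 0 of 10, beside 10.4% of all genes higher, 10.7% lower and 21.1% either way, and 2 had an unadjusted p under 0.05. These were emp-1 at -0.51 ± 0.15 (SE) and emp-7, whose adjusted p (limma, 0.0238 and 0.0491) also passed, so that both missed the fold requirement alone. The members' median log2 fold change against no carbon was 0.46 on Avicel, 0.60 on pectin and 0.44 on orange peel powder, where all genes had medians of -0.15, -0.12 and -0.14.

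Orange peel powder and pectin, which share a study of origin, could be compared directly. limma called 0 of the 10 genes and 0 had an unadjusted p under 0.05, beside 0.31% of all genes called, 0.149% higher and 0.161% lower. The values ranged from -0.41 ± 0.24 (SE) for fba to 0.23 ± 1.16 (SE) for adh-1. The SE of 1.84 for cfp leaves its difference of -0.14 poorly determined.

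The xylan library has no replicate, so its differences have no test. Of the 10 genes, 6 lay at least 1 log2 unit from the sucrose mean, beside 34.5% of all genes (18.9% higher and 15.5% lower): emp-3 at -1.75, pgk at -1.67, emp-7 at -1.39, ace-8 at -1.34, cfp at -2.59 and adh-1 at 1.88. The level of gpd-1, 41773 FPKM, lay inside the sucrose range, and so did that of adh-1, 9220 FPKM. Against pectin only ace-8 passed that distance, at 1.14, beside 24.0% of all genes (6.66% higher and 17.4% lower). With 3852 FPKM on xylan, ace-8 was above all pectin libraries and below all sucrose libraries, and emp-3 (676 FPKM), fba (11040 FPKM), gpd-1 and pgk (2923 FPKM) were also above the pectin range. The cfp level on xylan was 1124 FPKM and that of emp-1 was 1363 FPKM, the lowest of all 15 libraries for emp-1.

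The 9 earlier libraries list transcripts, and 4 of the genes were divided between a pair of transcripts that differ at 1 end. For emp-7, transcript T1 held 58.6% to 78.0% of the gene's FPKM in 7 libraries but 9.8% in Avicel replicate 1 and 1.75% in sucrose replicate 1. For ace-8, transcript T0 held 10.2% to 29.8% in those 7 libraries, 37.6% in Avicel replicate 1 and 67.4% in sucrose replicate 1. For fba, T0 held 21.9% to 61.5% in those 7, 78.3% in Avicel replicate 1 and 80.3% in sucrose replicate 1. For emp-1, T0 held 47.3% to 58.5% in those 7, 37.5% in Avicel replicate 1 and 46.7% in sucrose replicate 1. The 2 shallow libraries were thus outside the range of the others for all 4 genes, and the part of depth in these divisions was not tested. The cfp and adh-1 loci were each carried almost wholly by T0, at 96.8% or more and 99.9% or more.

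**Figure D5:**
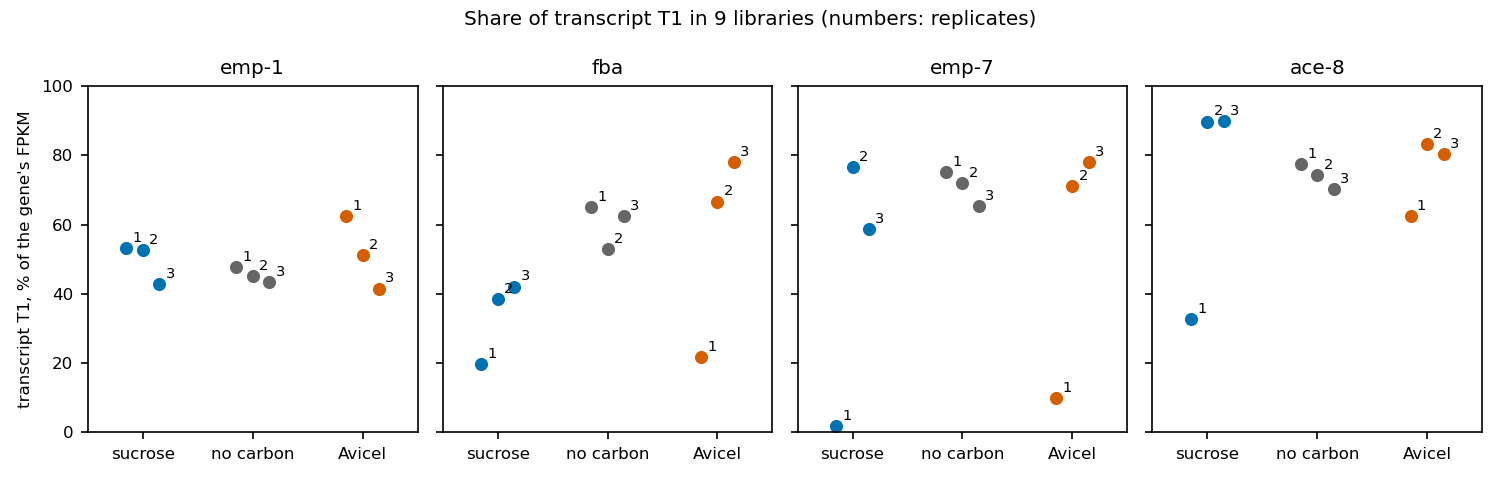
Share of the gene's FPKM (%) held by transcript T1 of emp-1, fba, emp-7 and ace-8 in the sucrose, no-carbon and Avicel libraries, with replicate numbers beside the points. Replicate 1 of sucrose and of Avicel lies below the other libraries for fba, emp-7 and ace-8.

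Another 11 pathway genes with a symbol were counted beside the set. Against sucrose 4 were called higher and 6 lower without carbon, 2 and 6 on Avicel, 3 and 4 on pectin, and 2 and 6 on orange peel powder. The shares of all genes, higher and lower, were 34.2% and 18.0% without carbon, 30.3% and 18.4% on Avicel, 26.6% and 14.2% on pectin, and 25.4% and 14.8% on orange peel powder. Without the 2 shallow libraries 1 was higher on Avicel and 4 on orange peel powder, where acu-3 and acu-9 gained a call, and the other counts were the same. The 3 listed pyruvate dehydrogenase genes with a symbol, ace-2, ace-3 and ace-4, which bring pyruvate into the mitochondrial route, were lower in all 4 comparisons. Their log2 fold changes ran from -2.54 ± 0.24 (SE) for ace-4 on orange peel powder to -4.36 ± 0.26 (SE) for ace-3 on Avicel (limma, adjusted p = 4.03e-06 and 4.69e-08). As an example, ace-3 read 4996, 5063 and 6082 FPKM on sucrose and 280, 282 and 243 without carbon.

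Of the other glycolytic genes, emp-6 was lower than on sucrose by log2 fold changes of -4.54 ± 0.43 (SE) without carbon, -3.28 on Avicel, -2.15 on pectin and -2.18 on orange peel powder (limma, adjusted p = 1.88e-06, 3.02e-05, 0.00117 and 0.0026). It was also higher than without carbon on pectin, at 2.39, and on orange peel powder, at 2.36 (limma, adjusted p = 0.00146 and 0.00392). The glucose-6-phosphate isomerase gene gpi-1 was called in none of the 8 comparisons, with values between -0.28 and 0.27. On sucrose it read 3581, 1330 and 1460 FPKM. Without the 2 shallow libraries it remained uncalled. Its values against sucrose were then 0.72 without carbon, 0.61 on Avicel, 0.55 on pectin and 0.52 on orange peel powder, without overlap (limma, adjusted p = 0.00283, 0.0134, 0.0154 and 0.0306).

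The genes specific to gluconeogenesis moved the other way. acu-6, encoding phosphoenolpyruvate carboxykinase, and fbp-1, encoding fructose-1,6-bisphosphatase, were called higher than on sucrose in all 4 comparisons, but the acu-6 call on Avicel was lost in 8 of 18 alternatives. fbp-1 read 88.0, 37.8 and 28.3 FPKM on sucrose, 867, 1348 and 522 without carbon, and 988, 842 and 776 on pectin, and its log2 fold change was 4.19 ± 0.45 (SE) without carbon and 4.21 ± 0.45 (SE) on pectin (limma, adjusted p = 5.12e-06 and 8.27e-06). acu-6 read 115, 33.1 and 38.3 FPKM on sucrose, 9303, 584 and 82.7 on Avicel and 1161, 12642 and 600 without carbon. The acu-6 value on Avicel was 3.84 ± 1.42 (SE) (limma, adjusted p = 0.0313) in groups that overlapped, and 2.60 ± 1.21 (SE), not called, without the 2 shallow libraries (limma, adjusted p = 0.0774). In these 3 groups the library highest for acu-6 was the one highest for cfp and adh-1, whereas on pectin and orange peel powder acu-6 was highest in replicate 1, at 6172 and 5325 FPKM, and cfp and adh-1 in replicate 2.

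Of the genes for acetate use and the glyoxylate cycle, acu-5 (acetyl-CoA synthetase) was lower than on sucrose without carbon, at -2.31 ± 0.20 (SE), on Avicel, at -1.96 ± 0.20 (SE), and on orange peel powder, at -1.44 ± 0.22 (SE), with limma adjusted p of 6.89e-07, 3.07e-06 and 0.000186. acu-3 (isocitrate lyase) was higher without carbon, at 1.5 ± 0.35 (SE), and acu-9 (NCU10007, malate synthase) without carbon and on pectin, at 2.12 ± 0.71 (SE) and 1.80 ± 0.71 (SE) (limma, adjusted p = 0.00213, 0.0182 and 0.0457). The acu-9 call on pectin was lost in 8 of 18 alternatives. Its call without carbon was lost in 4, among them leaving out no-carbon replicate 2, sucrose replicate 2 or sucrose replicate 3, and turned to -0.43 when single transcripts were joined. ppm-2, named for pentose phosphate metabolism, was lower without carbon, on Avicel and on orange peel powder, at -1.81, -1.61 and -1.44 (limma, adjusted p = 7.29e-06, 2.15e-05 and 0.00023), and quantile normalization ended these 3 calls.

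Over all 15 libraries, the genes whose log2 level followed cfp most closely, by Pearson r, were NCU01546 (0.978), NCU02475 (0.943) and NCU03781 (0.930). NCU01546 read 2864 FPKM in Avicel replicate 1 against 233 and 115 in its replicates, and 4113 FPKM in sucrose replicate 1 against 1711 and 1136. Those closest to adh-1 were NCU08330 (0.894), NCU11323 (0.876) and NCU07232 (0.876). NCU08330 read 2254, 678 and 143 FPKM on sucrose and 40717, 7177 and 5946 on Avicel. These r values rank genes over libraries that share media and depth and carry no test.

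The authors' deposited table of pooled FPKM held all 10 genes. Its values on pectin, orange peel powder and xylan were within 1% of the library means for 10 of 10, whereas on Avicel they were 0.81 to 0.963 times the means, without carbon 0.852 to 0.967 times and on sucrose 0.826 to 1.0 times. In that authors' deposited table, adh-1 stood in cluster 2, NCU00575 in cluster 16 and the other 8 genes in cluster 15.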

How the data were processed

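Per the labels' protocols, polyadenylated RNA was fragmented before randomly primed cDNA synthesis. The authors deposited FPKM values per gene (6 libraries) or per transcript (9 libraries), with a coverage signal, per the file headers, in the latter, and a pooled FPKM table. Tools named in the submitters' processing notes are TopHat 1.2.0, Cufflinks 0.9.3 and Cuffdiff. The build is not given in the sources used here. Deposited confidence limits carry no depth: the upper one equalled FPKM plus 2 square roots of it in 86.2% to 90.5% of nonzero rows.

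FPKM of a locus' transcripts were summed, and the 9733 loci were joined by identical span (863 had different identifiers). Positions count from 1. Symbols came from RefSeq NC12. FPKM are not counts, so log2(FPKM + 1) was modelled with limma 3.58.1 in R 4.3.3 over the 14 libraries of 5 replicated groups, with a variance trend (degrees of freedom 9 residual and 2.94 prior) and 8 tested comparisons. Fold changes on this scale understate those of low genes. The fitting code was first tested on simulated data. The xylan library entered no test.

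All 10 members are named. The other pathway genes were listed by role, and 6 listed identifiers without a symbol were dropped. Those dropped include identifiers listed for the pyruvate dehydrogenase complex and for triosephosphate isomerase, whose levels are not given. Genes like cfp and adh-1 are the 3 of highest Pearson r. Members and lists were chosen with earlier results of these data known. Near-identical paralogs may share reads. Same-numbered Avicel and sucrose libraries deviated together (r = 0.181, 0.12 and 0.179), which raised the possibility of a pairing by number. The main fit used the group only and no pairing. The shallow Avicel library and the shallow sucrose library also carry the same replicate number. The part of depth in these r values was not tested, so they do not establish the pairing. The block that was fitted tied same-numbered libraries of all replicated groups, also across the studies, and so was not a check of this pairing alone. With that block 6 members were called on Avicel against sucrose, as without it. The design text calls replicates biological.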

Additional observations from a re-analysis of the deposited data

How the results depend on the processing

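Settings changed 1 at a time were the pseudocount, the filter, the scaling, the variance trend, the join, the libraries in the fit, the block and each replicate. Of the values of single members under the alternatives, 1341 kept their direction and side of the threshold or were uncalled throughout, 45 lost a call, 20 gained one and 4 reversed. For the other pathway genes these numbers were 1507, 29, 11 and 4. Signs of uncalled values were not read. Quantile normalization left 4 members called without carbon against sucrose and 3 on Avicel against sucrose, and fba reversed to 0.65 without carbon. The members called on Avicel against no carbon fell to 0 without the 2 shallow libraries, with only the compared groups (334 genes called in all), and ranged from 0 to 1 with 1 replicate left out. On pectin against no carbon 0 were called under upper-quartile and quantile scaling, 2 without the 2 shallow libraries, and 0 to 1 with 1 replicate left out. The 2 were emp-7 and cfp, both higher, beside 11.8% of all genes higher and 14.1% lower without the 2 shallow libraries. Joining by single transcripts, chosen after seeing the data, drops transcripts with their own start or end: 3 members were then called on orange peel powder against sucrose, emp-7 turned to 0.86 (pectin) and 0.84 (orange peel powder) and fba to 0.33 (orange peel powder) against sucrose, and acu-9 (NCU10007) to -0.43 (no carbon) and -2.17 (Avicel) against sucrose and 7.95 (pectin) and 8.04 (orange peel powder) against no carbon. Genes called on orange peel powder against pectin numbered 27, and 161 without the 2 shallow libraries, 187 with only the compared groups and 4 to 18 with 1 replicate left out. On orange peel powder against no carbon they ranged from 808 to 1861. The members' share on xylan was 2.33% without the 10 highest loci. The cause of each change was not tested.

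With the replicate number as a block, 15 genes were called on orange peel powder against pectin instead of 27. The block changed no count of members called: 8 without carbon, 6 on Avicel, 5 on pectin and 5 on orange peel powder against sucrose. Outside Avicel against sucrose, at least 1 pair of same-numbered libraries in each comparison with 3 pairs had a correlation of 0.1 or less. Orange peel powder against pectin has only 2 such pairs, both above 0.1 (r = 0.107 and 0.213). Among the libraries with an implied depth, low values would be least precise in the 2 shallow ones if that depth holds. Intervals that need depth cannot be given for FPKM.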
